A study of Mus musculus with 7 samples.

Results

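Microexons are exons so short that only a few codons, and sometimes fewer than a handful, are added to the messenger RNA when they are kept. The skipped exons of 51 nucleotides (nt) or less were taken from the transcript-structure events of mouse neural cells grown from embryonic stem cells. All distinct events that describe the skipping of a single exon were collected over 7 libraries, events that skip several exons together were left out, and the length was read from the exon's coordinates. This gave 4603 events, which are 13.6% of the 33801 single-exon events and a small portion of the 126309 events of every kind. They describe 2209 distinct exons in 1674 gene loci.

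RNA was sequenced from 7 cultures, with 1 library for each of a control and 6 insecticides: the carbamate carbaryl, the organophosphate chlorpyrifos, the organochlorine DDT, the pyrethroid deltamethrin, the neonicotinoid imidacloprid and rotenone, a blocker of mitochondrial complex I. All libraries share a wild-type genotype and the stem cell line B6G-2. Cells passed through 6 days as embryoid bodies, were expanded as neural progenitors with bFGF and EGF, and at day 14 were set to differentiate into nerve and glial cells, with exposure lasting 1 day. The labels give neither a dose nor a vehicle, and they do not say that a culture was repeated, so every difference between libraries is given as a value without a test. The series set out to compare how each insecticide alters expression in progenitors of the nervous system.

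Neural microexons are known to be switched on as neurons mature. The splicing factor SRRM4, with its relative SRRM3 and the cofactor SRSF11, promotes their inclusion, and the polypyrimidine tract binding protein PTBP1 keeps many of them out in cells that are not neurons. Most sit in coding sequence and keep the reading frame, so that including one inserts a few amino acids, often at the edge of a domain that binds other proteins.

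The sequences of 6 exons show the scale of these events. They are some of the short exons described below, and most lay near the bottom of the inclusion scale. The 12-nt exons of Ptprs (86.8% to 94.1% included) and Robo2 (5.44% to 96.6%) are also described below and are not shown. Each is the spliced RNA sense sequence from the GENCODE M21 transcripts (GRCm38), written as DNA, with the microexon in capitals and 15 nt of each neighbouring exon in lower case.
Apbb1, 6 nt, chr7:105565946-105565951, minus strand: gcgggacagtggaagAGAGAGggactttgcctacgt
Agrn, 12 nt, chr4:156169546-156169557, minus strand: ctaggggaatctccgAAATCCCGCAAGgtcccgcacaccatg
Kdm1a, 12 nt, chr4:136563438-136563449, minus strand: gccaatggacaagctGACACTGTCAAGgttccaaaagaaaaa
Dnm2, 12 nt, chr9:21490658-21490669, plus strand: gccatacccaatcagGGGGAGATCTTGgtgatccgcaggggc
Ergic3, 15 nt, chr2:156015377-156015391, plus strand: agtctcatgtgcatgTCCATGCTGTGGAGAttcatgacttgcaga
Src, 18 nt, chr2:157458843-157458860, plus strand: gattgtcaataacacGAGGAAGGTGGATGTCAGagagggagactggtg
All 6 are annotated as coding exons and all 6 lengths are multiples of 3.

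Exons of the same gene family carry related microexons, and these are shown because the values of their keeping and skipping forms are given below. The Mef2 genes encode transcription factors of muscle and neurons, and their microexon lies in the activation region.
Mef2a, 24 nt, chr7:67244521-67244544, minus strand: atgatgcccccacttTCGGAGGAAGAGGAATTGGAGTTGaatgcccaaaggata
Mef2c, 24 nt, chr13:83654598-83654621, plus strand: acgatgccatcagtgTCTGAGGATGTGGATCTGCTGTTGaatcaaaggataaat
Mef2d, 21 nt, chr3:88161781-88161801, plus strand: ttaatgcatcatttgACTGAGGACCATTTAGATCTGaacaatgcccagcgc
Clasp1 and Clasp2 encode proteins that stabilise microtubule plus ends, and their exons matched at 17 of 24 bases (70.8%).
Clasp1, 24 nt, chr1:118541675-118541698, plus strand: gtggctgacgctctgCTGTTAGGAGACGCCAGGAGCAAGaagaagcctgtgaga
Clasp2, 24 nt, chr9:113878750-113878773, plus strand: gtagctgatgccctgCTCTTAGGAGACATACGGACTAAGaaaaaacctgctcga
Cpeb2 and Cpeb4 encode proteins that bind the cytoplasmic polyadenylation element and control translation. Their 24-nt exons matched at 21 of 24 bases (87.5%).
Cpeb2, 24 nt, chr5:43268869-43268892, plus strand: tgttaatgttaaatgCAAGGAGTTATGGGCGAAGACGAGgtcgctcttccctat
Cpeb4, 24 nt, chr11:31918801-31918824, plus strand: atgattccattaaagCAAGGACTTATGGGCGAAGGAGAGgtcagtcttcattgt
Eif4g1 and Eif4g3 encode scaffolds of the translation initiation complex, and their 21-nt exons matched at 16 of 21 bases (76.2%).
Eif4g1, 21 nt, chr16:20674786-20674806, plus strand: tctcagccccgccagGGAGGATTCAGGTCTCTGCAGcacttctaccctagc
Eif4g3, 21 nt, chr4:138095909-138095929, plus strand: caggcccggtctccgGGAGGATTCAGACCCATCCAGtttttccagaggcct
Ptprs and Ptprd encode receptor tyrosine phosphatases that organise synapses, and their 27-nt exons matched at 19 of 27 bases (70.4%).
Ptprs, 27 nt, chr17:56427791-56427817, minus strand: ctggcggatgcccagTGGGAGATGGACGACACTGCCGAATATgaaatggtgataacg
Ptprd, 27 nt, chr4:76095520-76095546, minus strand: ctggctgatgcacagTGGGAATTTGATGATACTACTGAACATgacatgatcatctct
Ptbp1 and its neural counterpart Ptbp2 hold a 34-nt exon whose length is not a multiple of 3, so that skipping it shifts the reading frame. The exons matched at 26 of 34 bases (76.5%).
Ptbp1, 34 nt, chr10:79862014-79862047, plus strand: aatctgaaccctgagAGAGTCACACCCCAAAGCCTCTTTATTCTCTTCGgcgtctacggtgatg
Ptbp2, 34 nt, chr3:119724612-119724645, minus strand: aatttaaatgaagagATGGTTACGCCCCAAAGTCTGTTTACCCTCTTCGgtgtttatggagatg
The 24-nt exons of Mef2a and Mef2c matched at 17 of 24 bases (70.8%). The families were chosen after the sequences had been read. Matching bases were counted only between exons of equal length and are given only at 60% identity or more, so none are given for the 21-nt exon of Mef2d.

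Lengths that keep the reading frame were the more common the shorter the exon. Of the 2209 distinct microexons, 1375 (62.2%) had a length that is a multiple of 3, against 6510 of 15052 longer skipped exons (43.3%). Among microexons of 3 to 27 nt the share was 548 of 724 (75.7%), and among those of 28 to 51 nt it was 827 of 1481 (55.8%). Another 4 exons were shorter than 3 nt. The median microexon was 36 nt long.

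**Figure D1:**
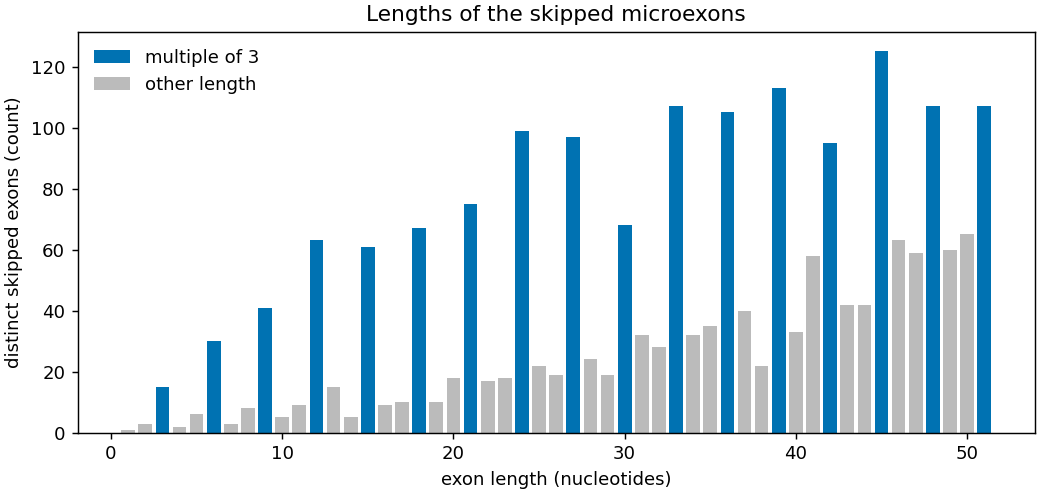
Distinct skipped microexons (count, vertical) by exon length (nucleotides, horizontal), with multiples of 3 in blue and other lengths in grey. Every blue bar is taller than the grey bars beside it, and 1375 of the 2209 exons are blue.

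To measure inclusion, the event that keeps the exon was paired with the event that skips it. The inclusion share is 100 times the value of the keeping form divided by the sum of both forms, each in FPKM (fragments scaled to transcript length and library size). A total of 1868 pairs could be formed. Of these, 592 had a total under 1 FPKM in some library and 816 reached it but lacked a value for one form in some library. The remaining 460 pairs had both forms listed and at least 1 FPKM in every library, and they hold 428 exons of 381 genes. These 460 are the pairs described below unless another number is given. The exon and both neighbours were the same in the 2 forms for 421 pairs, and for 39 pairs (called approximate) only the exon was. The files list no zero, so a form without a value may be absent or unresolved. Of the 816 incomplete pairs, 496 lacked the keeping form and 309 the skipping form, and 11 lacked each of them somewhere. Different exons of a gene can carry the same value. In Kif1b the keeping forms of a 42-nt and an 18-nt exon were both 10.7 FPKM in the control. They were also equal with chlorpyrifos, rotenone and carbaryl. Pairs of the same gene are therefore not separate measurements.

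The exons of these pairs were mostly coding and frame-preserving. The annotation placed 349 of 428 (81.5%) wholly in coding sequence, 22 in a 5' UTR, 3 in a 3' UTR, 28 partly in coding sequence and partly in a UTR and 23 in noncoding transcripts, while 3 were not annotated. Among the longer skipped exons, 69.9% lay wholly in coding sequence. Of the 120 coding microexons of 3 to 27 nt, 115 (95.8%) had a length that is a multiple of 3. The share was 170 of 229 (74.2%) for coding microexons of 28 to 51 nt and 939 of 1574 (59.7%) for longer coding exons. Base composition set microexons little apart, with a median GC content of 48.1% against 50.3% for longer exons, and the last base was G in 80.7% against 81.3%. Afdn, Gas5, Kif21a, Ptprf and Synj1 each held 3 of the microexons.

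The cells expressed the machinery that acts on microexons unevenly. Gene levels were read as the summed FPKM of a gene's transcript starts. Srrm4 was low, with a start total of 0 to 1.78 FPKM over the 7 libraries (median 1.38), and its value of 0 was in the DDT library, where its transcript ends gave 0.613 FPKM. Srrm3 lay between 0.955 and 2.48 FPKM. Srsf11 stood at 32.1 to 46.0 FPKM, and the repressor Ptbp1 at 80.8 to 99.7 FPKM. Ptbp2, which takes over from Ptbp1 in neurons, lay between 29.7 and 39.8 FPKM. Transcript ends gave other totals for some of these genes, with 0.0411 to 4.56 FPKM for Ptbp1, 0.341 to 6.94 FPKM for Ptbp2 and 0 to 2.37 FPKM for Srrm3. In start totals, for each of these 5 genes, the control lay between the lowest and the highest exposed library.

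Markers of progenitors, neurons and astrocytes were present in part. Among the 5 progenitor genes, Vim, Nes and Pax6 had start totals of 995 to 1233, 165 to 206 and 8.77 to 11.7 FPKM. Fabp7 ran from 66.2 FPKM with rotenone to 2620 FPKM in the control, and Sox2 matched no start or end event. Single-exon transcripts were left out of this matching, so a gene without a match cannot be called absent from the cells. Among the 6 neuronal genes, Map2 and Dcx stood at 132 to 157 and 22.8 to 27.2 FPKM and Snap25 and Rbfox3 at 6.83 to 8.93 and 1.54 to 3.78 FPKM. Syt1 was 3.07 FPKM in the control and 11.6 to 14.7 FPKM in the exposed libraries, and Tubb3 matched no event. Of the 5 astrocyte genes, Slc1a3 (54.3 to 95.5 FPKM) and Aldh1l1 (27.7 to 43.5 FPKM) had start totals in every library, while Gfap, Aqp4 and S100b had start and end totals under 1 FPKM. The end totals of some markers were far from their start totals. They were 0 in every library for Fabp7 and Aldh1l1, at most 0.127 FPKM for Map2 and 25.4 to 35.7 FPKM for Nes. For Vim and Dcx they were close, at 977 to 1208 and 22.6 to 26.8 FPKM. The 3 pluripotency genes also stayed under 1 FPKM in both totals, and the 3 microglial genes matched no event with a value. Their part in the microexon values was not tested. In these bulk RNA samples, fewer cells of a type and less RNA per cell cannot be told apart. The files hold no read counts, so the depth of the libraries is unknown and no counting error can be given.

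Microexons were skipped more often than longer exons. The median inclusion share over the 460 pairs was between 39.9% and 43.7% in the 7 libraries, and the median over 2345 pairs of longer exons was between 69.2% and 71.1%. In each of the 7 libraries the microexon median was the lower. The shortest exons were lowest, with library medians of 30.6% to 34.3% for the 134 pairs of 3 to 27 nt, against 43.1% to 52.4% for the 326 pairs of 28 to 51 nt. The libraries measure the same exons and the difference was not tested. Pairs with a form unlisted somewhere, counted as 0, moved the medians apart, to between 25.4% and 29.7% for 1276 microexon pairs and between 88.6% and 89.9% for 8136 pairs of longer exons.

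**Figure D2:**
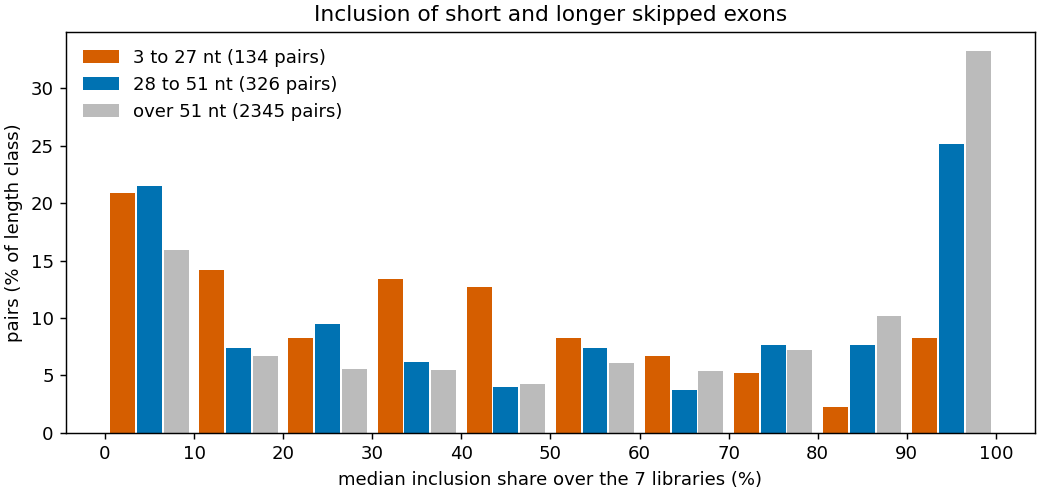
Share of pairs (percent of each length class, vertical) by their median inclusion share over the 7 libraries (percent, in steps of 10, horizontal) for microexons of 3 to 27 nt, microexons of 28 to 51 nt and longer exons. Pairs above 90% make up 8.21% of the shortest class, 25.2% of the middle class and 33.2% of the longer exons.

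Inclusion also differed with the reading frame. Coding microexons whose length is a multiple of 3 had a median share of 36.6% (307 pairs), and 27 of these pairs lay above 95%. Coding microexons of other lengths had a median share of 94.4% (68 pairs), and 33 of those lay above 95%. The longer coding exons showed medians of 70.0% (970 pairs) and 93.8% (654 pairs) for the same classes. Thus the median of frame-shifting exons was much alike in both length classes, while that of frame-preserving exons was lower among microexons. These shares describe the RNA that was present, and loss of either form after splicing was not measured. At the length limit the shares showed no step in one direction, with medians of 39.4% at 51 nt (32 pairs), 83.0% at 52 nt (10 pairs), 33.8% at 53 nt (14 pairs) and 32.2% at 54 nt (41 pairs).

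Genes with microexons known from neurons were listed by role from general knowledge, 85 in all. Of these, 63 had a microexon event and 37 gave 45 of the pairs. Every microexon of a listed gene was counted, whether or not that exon is the one known from neurons. Their median share was 14.7%, against 44.2% for all microexon pairs, and 25 of 45 (55.6%) lay under 20%, against 141 of 460 (30.7%). A median share over 80% was seen in 5 list pairs and one of 20% to 80% in 15. Another 54 pairs of these genes had an unlisted form and are outside these counts. Of the 45 pairs, 43 had a length that is a multiple of 3, and 28 were at most 27 nt long.

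**Figure D3:**
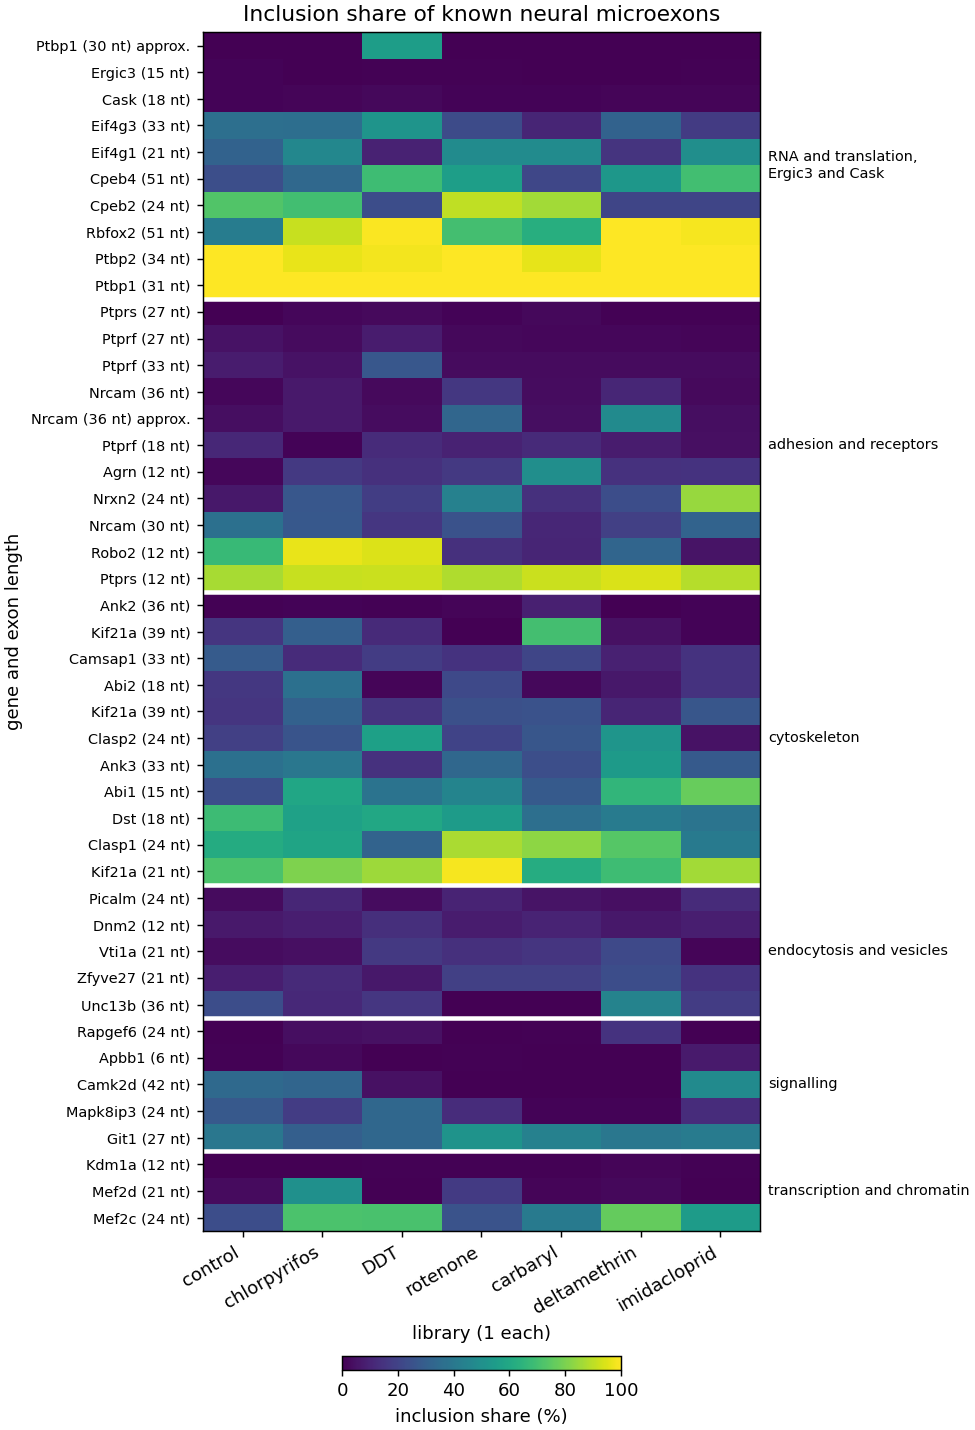
Inclusion share (percent, colour scale from 0 to 100) of the 45 microexon pairs in listed genes (rows, gene and exon length, grouped by role) in the 7 libraries (columns). The list names genes with known neural microexons, and any microexon of such a gene is shown. Dark rows such as Ergic3, Cask and Kdm1a are skipped in every library, and Ptbp2 and the 12-nt exon of Ptprs are bright in every library.

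Among genes of transcription and chromatin, Kdm1a, which encodes the histone demethylase LSD1, kept its 12-nt exon out almost fully. Its share was 0.221% in the control, 0.327% with chlorpyrifos, 0.439% with DDT, 0.719% with rotenone, 0.392% with carbaryl, 1.44% with deltamethrin and 0.415% with imidacloprid. All 7 libraries lay within 2 points of each other, and the skipping form alone was between 37.5 and 48 FPKM. The Mef2c exon differed widely, with 23.8% in the control, 71.6% with chlorpyrifos, 71.3% with DDT, 25.7% with rotenone, 40.7% with carbaryl, 76.4% with deltamethrin and 54.7% with imidacloprid. The control and rotenone libraries were the lowest, and deltamethrin, chlorpyrifos and DDT the highest, at totals of 6.51 to 10.4 FPKM. In Mef2d the share was 3.03% in the control, 50% with chlorpyrifos, 0.057% with DDT, 17% with rotenone, 1.22% with carbaryl, 2.16% with deltamethrin and 0.0143% with imidacloprid. The chlorpyrifos library stood apart from the others, with 4.94 FPKM for the keeping form against 0.221 FPKM in the control. The related exon of Mef2a, named here after its values were seen, had no keeping form listed with DDT. Its keeping form was 3.40 FPKM in the control and 10.7 FPKM with rotenone, where it was highest, against 10.2 and 4.54 FPKM for the skipping form. The 3 related exons therefore did not share one order of libraries.

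Adhesion molecules and receptors had a median share of 9.65% over 11 pairs of 6 genes. Ptprs shows both ends of the scale in one gene. Its 27-nt exon was included at 0.247% in the control, 1.79% with chlorpyrifos, 2.36% with DDT, 0.801% with rotenone, 2.13% with carbaryl, 0.504% with deltamethrin and 0.633% with imidacloprid. Its 12-nt exon was included at 86.8% in the control, 91.5% with chlorpyrifos, 92% with DDT, 88.1% with rotenone, 92% with carbaryl, 94.1% with deltamethrin and 89% with imidacloprid. Both exons thus held their place in every library, the longer of them nearly always skipped and the shorter nearly always kept. The 27-nt exon of Ptprf lay between 1.45% and 7.5%. The 27-nt exon of Ptprd was listed with its keeping form with DDT (1.23 FPKM) and rotenone (1.04 FPKM) alone. The skipping form was 0.412 and 2.32 FPKM in these libraries, which gives shares of 74.8% and 30.9%. Totals were as low as 1.08 FPKM.

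Agrn encodes agrin, the proteoglycan that clusters acetylcholine receptors at the nerve-muscle synapse. Its 12-nt exon had shares of 1.85% in the control, 16.5% with chlorpyrifos, 14.1% with DDT, 16.5% with rotenone, 49.4% with carbaryl, 14.1% with deltamethrin and 14.6% with imidacloprid. The control was the lowest and carbaryl the highest, and the other 5 lay within 3 points of each other. The 24-nt and 33-nt exons of Agrn were described after their values were seen. For the 24-nt exon the keeping form was listed in 4 of 7 libraries, at most at 0.517 FPKM. For the 33-nt exon it was listed with rotenone alone, at 14.4 FPKM beside 33.1 FPKM for the skipping form. Robo2, a receptor of the guidance cue Slit, gave its 12-nt exon shares of 67.2% in the control, 96.6% with chlorpyrifos, 94.9% with DDT, 14% with rotenone, 10.4% with carbaryl, 32.6% with deltamethrin and 5.44% with imidacloprid. The control, chlorpyrifos and DDT libraries were above the other 4, at totals of only 5.39 to 8.50 FPKM. Nrxn2 encodes the presynaptic adhesion protein neurexin, and its 24-nt exon was included at 6.51% in the control, 27.2% with chlorpyrifos, 18.3% with DDT, 43.8% with rotenone, 13.8% with carbaryl, 23.7% with deltamethrin and 84.6% with imidacloprid. Imidacloprid was the highest and the control the lowest, and the total was as low as 2.78 FPKM.

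Genes of endocytosis and vesicles had a median share of 13.8% over 5 pairs. A range of 20 points or more was seen in 2 of the 5, against 53.7% of all single-exon pairs. Dnm2 encodes dynamin, the enzyme that pinches vesicles from the membrane, and its 12-nt exon was included at 6.93% in the control, 8.38% with chlorpyrifos, 13.4% with DDT, 7.5% with rotenone, 9.82% with carbaryl, 6.55% with deltamethrin and 8.58% with imidacloprid. All libraries lay within 7 points, at totals of 23.2 to 27.6 FPKM. Picalm, a clathrin assembly protein, lay between 2.90% and 12.1%.

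Signalling genes had a median share of 4.59% over 5 pairs. Apbb1 encodes FE65, which binds the amyloid precursor protein, and its 6-nt exon was included at 0.54% in the control, 1.99% with chlorpyrifos, 0.158% with DDT, 0.532% with rotenone, 0.164% with carbaryl, 0.314% with deltamethrin and 7.36% with imidacloprid. All 7 values were under 8%, with imidacloprid the highest. Git1, a scaffold at focal adhesions and synapses, was at an intermediate level of 39.6% in the control, 30.3% with chlorpyrifos, 33.4% with DDT, 51.3% with rotenone, 44% with carbaryl, 39.8% with deltamethrin and 41.5% with imidacloprid. The neuronal exon of Src, which makes the neuronal form of this tyrosine kinase, was described after its values were seen because its keeping form was unlisted with chlorpyrifos. Where listed, the keeping form was between 0.160 FPKM with rotenone and 4.97 FPKM with carbaryl, and the control had 3.01 FPKM. The skipping form was between 25.9 and 32.3 FPKM, so that the skipping form was the larger in the 6 libraries that list both.

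The cytoskeleton genes had a median share of 25.9% and a range of 20 points or more in 9 of 11 pairs, against 53.7% of all single-exon pairs and 60.2% of all microexon pairs. For Clasp1 the share was 61.6% in the control, 58.2% with chlorpyrifos, 31.9% with DDT, 87.2% with rotenone, 83.1% with carbaryl, 73.6% with deltamethrin and 41% with imidacloprid. For its paralog Clasp2 it was 18.8% in the control, 25.9% with chlorpyrifos, 56.9% with DDT, 20.1% with rotenone, 26.6% with carbaryl, 52.3% with deltamethrin and 4.71% with imidacloprid. DDT was the lowest library for Clasp1 and the highest for Clasp2, and the totals were 15 to 27.7 FPKM and 15 to 21.3 FPKM. Abi1, a subunit of the complex that drives actin branching, had a 15-nt exon at 24% in the control, 59.3% with chlorpyrifos, 38.2% with DDT, 45.2% with rotenone, 28.3% with carbaryl, 66% with deltamethrin and 76.9% with imidacloprid. The control was lowest and imidacloprid highest.

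The group listed as RNA and translation, to which Ergic3 and Cask had been added, had a median of 49.5% over 10 pairs. Without these 2 genes it was 61.4% over 8 pairs. The 34-nt exon of Ptbp2, whose skipping in cells rich in PTBP1 is a textbook case, was included at 99.9% in the control, 96.8% with chlorpyrifos, 98.4% with DDT, 99.9% with rotenone, 96.2% with carbaryl, 99.9% with deltamethrin and 99.9% with imidacloprid. Every library was above 96%. Ptbp1 itself had a start total of 80.8 FPKM or more and an end total of 0.0411 to 4.56 FPKM. Whether its level bears on this exon was not tested. The share describes the RNA that was present, and loss of either form after splicing was not measured. The 34-nt exon of Ptbp1, described after its values were seen, had 79.1 to 105 FPKM for the keeping form and at most 1.33 FPKM for the skipping form. At the other end, the 15-nt exon of Ergic3, a membrane protein of the early secretory pathway, was included at 0.857% in the control, 0.307% with chlorpyrifos, 0.466% with DDT, 0.59% with rotenone, 0.339% with carbaryl, 0.341% with deltamethrin and 0.748% with imidacloprid. The 18-nt exon of Cask, a scaffold kinase of the synapse, was between 1.03% and 2.11%.

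Eif4g1 was the most abundant of the translation genes here, with a total of 108 to 120 FPKM. Its 21-nt exon was included at 31.5% in the control, 46.2% with chlorpyrifos, 9.47% with DDT, 48.4% with rotenone, 48.1% with carbaryl, 15.1% with deltamethrin and 49.3% with imidacloprid. The DDT and deltamethrin libraries were low, and the other 5 were between 31.5% and 49.3%. For Cpeb2 the share was 73% in the control, 69.9% with chlorpyrifos, 23.6% with DDT, 90.6% with rotenone, 86% with carbaryl, 20.8% with deltamethrin and 20.8% with imidacloprid. The libraries fell into 4 at 69.9% or above and 3 at 23.6% or below, at totals of 1.94 to 2.91 FPKM. The related exons of Eif4g3 and Cpeb4 lacked a form in some libraries and were described after their values were seen. For the 21-nt exon of Eif4g3, the keeping form of 1 pair was listed in 6 libraries at 0.0798 to 2.22 FPKM, beside 5.72 to 21.7 FPKM for the skipping form. In its other pair the keeping form was listed with chlorpyrifos alone, at 3.15 FPKM. For the 24-nt exon of Cpeb4, no listed keeping form exceeded 1.7 FPKM, and the skipping forms were between 2.21 and 8.21 FPKM. Rbfox2, itself a splicing factor, had a 51-nt exon at 41.8% in the control, 91.6% with chlorpyrifos, 99.3% with DDT, 70.2% with rotenone, 62.8% with carbaryl, 99.6% with deltamethrin and 98.7% with imidacloprid. The control was the lowest library, more than 20 points under each of the others, at totals of 4.67 to 19.4 FPKM.

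A few microexons were held at an intermediate share in every library. These are the 6 with the smallest range among pairs of 5 FPKM or more with a median share of 20% to 80%, and 3 are shown with the sequence.
Myo6, 27 nt, chr9:80303273-80303299, plus strand: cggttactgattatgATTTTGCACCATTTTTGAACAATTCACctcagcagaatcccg
Luc7l2, 30 nt, chr6:38598785-38598814, plus strand: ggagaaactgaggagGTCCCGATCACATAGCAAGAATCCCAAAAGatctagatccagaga
Epn2, 36 nt, chr11:61534578-61534613, minus strand: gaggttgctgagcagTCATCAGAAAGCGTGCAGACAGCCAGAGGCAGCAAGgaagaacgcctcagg
Epn2 encodes epsin, an adaptor of clathrin coats, and its share was 24.3% in the control, 22.6% with chlorpyrifos, 25% with DDT, 24.7% with rotenone, 30.1% with carbaryl, 26.6% with deltamethrin and 29.5% with imidacloprid. The 7 libraries lay within 8 points at totals of 68.5 to 74.5 FPKM. Luc7l2, a component of the U1 small nuclear ribonucleoprotein, had 38.3% in the control, 35.9% with chlorpyrifos, 37.4% with DDT, 41% with rotenone, 34.1% with carbaryl, 42.8% with deltamethrin and 40.5% with imidacloprid. Myo6 encodes the myosin that walks to the minus end of actin, and its share was 40.5% in the control, 46.8% with chlorpyrifos, 39.3% with DDT, 41.7% with rotenone, 43.8% with carbaryl, 37.2% with deltamethrin and 40.3% with imidacloprid. No insecticide library was more than 10 points from the control for these exons, which follows from choosing them by their small range. The other 3 were Nlgn2, the adhesion protein of inhibitory synapses, at 73.0% to 80.6%, Atp6v0b, a subunit of the proton pump of acidic vesicles, at 19.9% to 29.1%, and Idnk, a gluconokinase, at 15.4% to 24.6%.

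Most microexons were less steady. The share ranged over 20 points or more across the 7 libraries in 277 of 460 pairs (60.2%), where the figure over all 2805 single-exon pairs was 53.7%. The range was under 5 points in 81 pairs and 50 points or more in 100, against 493 and 411 of the 2345 pairs of longer exons. Among pairs with a median share of 20% to 80%, a range of 20 points or more was seen in 174 of 198 microexon pairs (87.9%) and in 693 of 796 pairs of longer exons (87.1%). The range went with the expression level. A range of 20 points or more was seen in 36 of 43 pairs (83.7%) with a mean total of 1 to 5 FPKM, in 169 of 235 (71.9%) at 5 to 20 FPKM and in 72 of 182 (39.6%) at 20 FPKM or more. Longer exons showed the same order, with 87.4%, 63.6% and 30.6%.

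Abundant genes were also among the 12 pairs with the largest range. Nap1l4, which encodes a histone chaperone, had a 36-nt exon at 97.2% in the control, 14.1% with chlorpyrifos, 93.6% with DDT, 60.6% with rotenone, 9.04% with carbaryl, 60.1% with deltamethrin and 69.7% with imidacloprid. Chlorpyrifos and carbaryl were low, and the control and DDT were above 90%, at totals of 34.2 to 85.4 FPKM. Ewsr1, an RNA-binding protein, had an 18-nt exon at 79.5% in the control, 3.24% with chlorpyrifos, 65.8% with DDT, 27.4% with rotenone, 72% with carbaryl, 74% with deltamethrin and 71% with imidacloprid. Chlorpyrifos and rotenone were low, with skipping forms of 78.6 and 47.6 FPKM against 15.4 FPKM in the control. The 33-nt exon of Map2k4, a kinase upstream of JNK, was at 0.739% in the control, 11.2% with chlorpyrifos, 3.65% with DDT, 77% with rotenone, 11.2% with carbaryl, 10.3% with deltamethrin and 1.13% with imidacloprid. Rotenone was the high library, and no other exceeded 11.2%. Others of the 12 belong to Robo2, described above, and to Sgce, Tia1, Ptbp3, Prc1, Prom1 and Arhgap21.
Ewsr1, 18 nt, chr11:5091460-5091477, minus strand: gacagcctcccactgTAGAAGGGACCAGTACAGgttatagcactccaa
Map2k4, 33 nt, chr11:65775733-65775765, minus strand: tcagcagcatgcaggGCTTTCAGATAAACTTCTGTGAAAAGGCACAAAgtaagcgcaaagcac

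**Figure D4:**
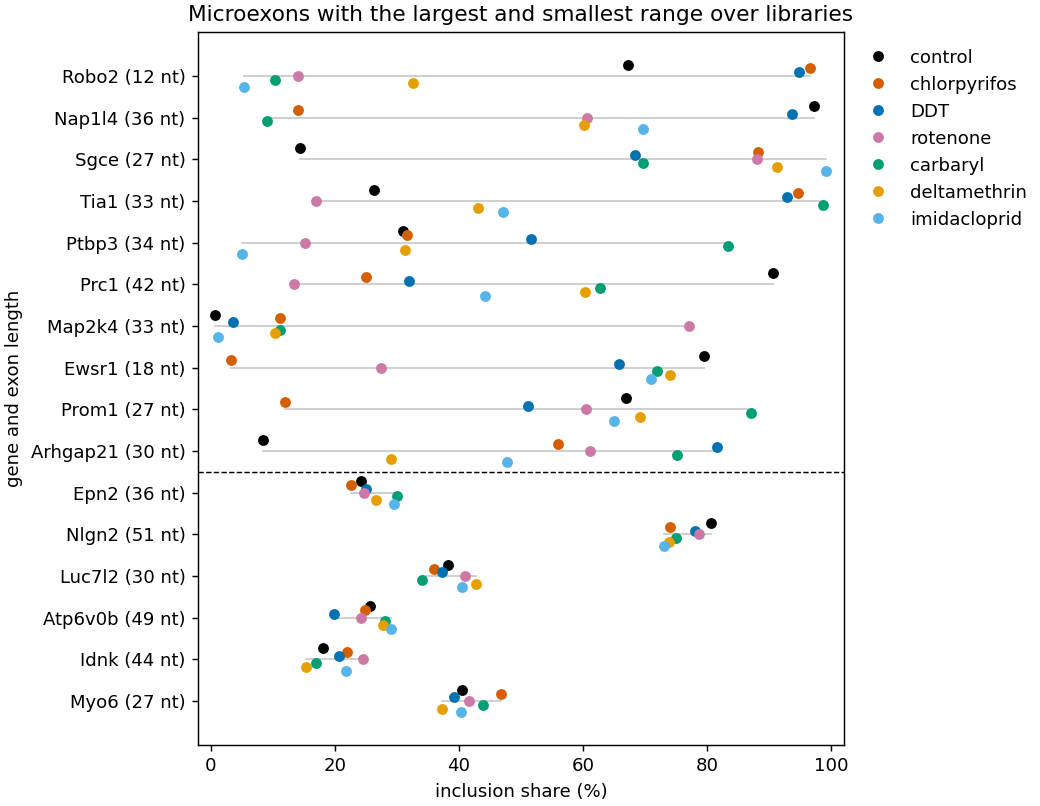
Inclusion share (percent, horizontal) of 10 microexons among those with the largest range and, below the dashed line, the 6 with the smallest (rows, gene and exon length), with 1 coloured point per library and a grey line from the lowest to the highest. The upper rows span up to 91.1 points (Robo2) and the lower rows at most 9.64 points (Myo6).

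The comparisons of the insecticides with the control share the single control library, so their counts are not independent. A pair was counted where the share differed by 20 percentage points or more. Chlorpyrifos differed from the control in 117 of 460 pairs (25.4%), with 53 higher and 64 lower. Over all single-exon pairs, 19.8% differed (9.66% higher and 10.1% lower). The highest against the control were Sgce, which encodes epsilon-sarcoglycan of the dystrophin-associated complex (14.4% in the control, 88.2% exposed), Tia1, an RNA-binding protein of stress granules (26.3% and 94.7%), and the 5' UTR exon of Nudt1, which removes oxidised nucleotides (33.0% and 92.5%). The lowest against the control were Nap1l4 (97.2% and 14.1%), Ewsr1 (79.5% and 3.24%) and Gripap1, a protein of recycling endosomes (99.6% and 29.7%). Of the 45 list pairs, 7 were higher and none lower: Mef2d, Mef2c, Rbfox2, Robo2, Abi1, Abi2 and Nrxn2. Their median difference over all 45 was 1.46 points.

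DDT differed in 108 pairs (23.5%), with 52 higher and 56 lower, against 20.1% of all single-exon pairs (9.88% higher and 10.2% lower). The highest against the control were Arhgap21, a GTPase-activating protein (8.52% and 81.6%), Sept2, a septin of the cytoskeleton (5.22% and 75.5%), and Tia1 (26.3% and 92.9%). The lowest were Acap2, a GTPase-activating protein of Arf6 (75.7% and 15%), Prc1, which bundles midzone microtubules in cell division (90.6% and 31.9%), and Ocrl, an inositol phosphatase (51.3% and 0.556%). In the list, 6 pairs were higher and 6 lower. The lower were Clasp1, Eif4g1, Cpeb2, Ank3, Camk2d and the 30-nt exon of Nrcam.

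Rotenone differed in 104 pairs (22.6%), with 50 higher and 54 lower, against 19.6% of all single-exon pairs (9.88% higher and 9.77% lower). The highest against the control were Map2k4 (0.739% and 77.0%), Sgce (14.4% and 88.0%) and the approximate pair of Foxm1, a transcription factor of mitosis (42.6% and 99.0%). The exact pair of this Foxm1 exon had a control share too high for such a rise, as given with deltamethrin below. Prc1 was lowest (90.6% and 13.4% for its exact pair), and its approximate pair of the same exon was next. It was followed by Myo18a, an unconventional myosin (98.0% and 40.4%). In the list, 7 pairs were higher and 3 lower, the latter in Robo2, Camk2d and Unc13b.

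Carbaryl differed in 110 pairs (23.9%), with 44 higher and 66 lower, against 19.7% of all single-exon pairs (9.48% higher and 10.2% lower). The highest against the control were Tia1 (26.3% and 98.7%), Arhgap21 (8.52% and 75.2%) and Ndufa7, a subunit of mitochondrial complex I (41.0% and 98.2%). Among the lowest were Nap1l4 (97.2% and 9.04%) and Robo2 (67.2% and 10.4%). In the list, 4 pairs were higher (Agrn, Clasp1, Rbfox2 and a 39-nt exon of Kif21a) and 7 lower.

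Deltamethrin differed in 117 pairs (25.4%), with 57 higher and 60 lower, against 20.4% of all single-exon pairs (10.5% higher and 9.91% lower). The highest against the control were Sgce (14.4% and 91.2%), Ndufa7 (41.0% and 98.9%) and Serpinh1, a collagen chaperone whose exon lies in the 5' UTR (25.8% and 79.4%). The lowest were Myef2, an RNA-binding protein (63.0% and 1.49%), the exact pair of Foxm1 (95.6% and 35.4%) and Myo18a (98.0% and 43.7%). The Foxm1 exon was higher in its approximate pair and lower in its exact pair, so the direction for this exon depends on which neighbours are taken. In the list, 7 pairs were higher and 5 lower.

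Imidacloprid differed in 106 pairs (23.0%), with 52 higher and 54 lower, against 19.5% of all single-exon pairs (9.23% higher and 10.3% lower). The highest against the control were Sgce (14.4% and 99.2%), Ndufa7 (41.0% and 96.7%) and the approximate pair of Foxm1 (42.6% and 96.9%). The exact pair of this Foxm1 exon had a control share too high for such a rise, as given with deltamethrin above. The lowest were Upf3b, a factor of nonsense-mediated decay (65.6% and 2.09%), Robo2 (67.2% and 5.44%) and Lrp8, a receptor of reelin (70.0% and 13.5%). In the list, 5 pairs were higher and 4 lower. The median difference over the 45 list pairs was between -0.0119 and 1.46 points in the 6 comparisons. Between 15.6% and 26.7% of the list pairs differed by 20 points or more in each.

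Differences of this size were about as common between exposed libraries as between an exposed library and the control. Over the 15 pairs of exposed libraries, 92 to 112 microexon pairs differed by 20 points or more (20% to 24.3%, median 22.0%), and over the 6 comparisons with the control 104 to 117 did (22.6% to 25.4%, median 23.7%). For longer exons the percentages were 17.8% to 20.3% and 18.6% to 19.4%. The median absolute difference of a microexon against the control was 6.46 to 7.09 points, and it was 4.83 to 5.35 points for longer exons. With 1 library per agent, variation between cultures and the effect of an insecticide cannot be told apart.

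**Figure D5:**
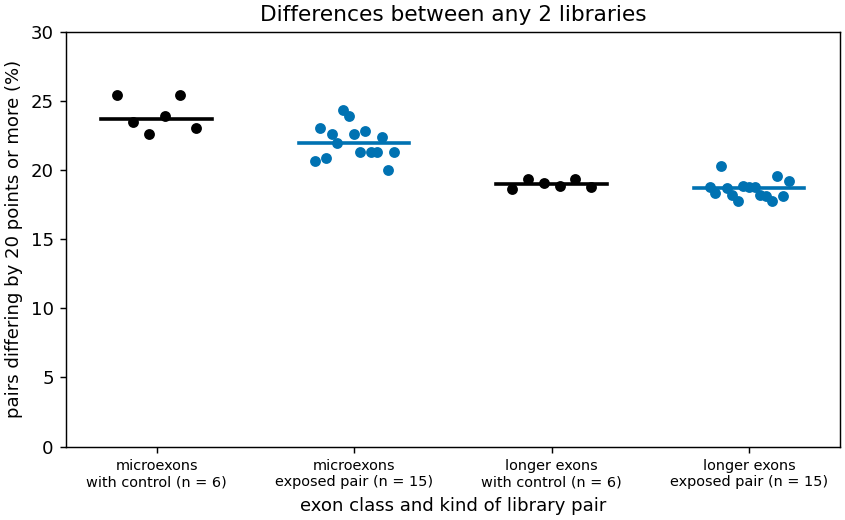
Pairs that differ by 20 points or more (percent, vertical) for each pair of libraries (points), by exon class and by whether the control is one of the 2 libraries (bars, medians). Microexon points lie between 20% and 25.4% and those of longer exons between 17.8% and 20.3%, with control and exposed pairs overlapping in both classes.

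Some exons set the control apart from all 6 exposed libraries by 20 points or more, a count added after the data had been seen. There were 17 such pairs (3.70%), with the control the highest in 10 and the lowest in 7, against 2.42% of all single-exon pairs. The same count was 13 for chlorpyrifos (2.21% of all single-exon pairs), 12 for DDT (1.93%), 11 for rotenone (1.53%), 14 for carbaryl (2.25%), 10 for deltamethrin (2.07%) and 10 for imidacloprid (2.14%). The control count is thus the highest of the 7 by 3 pairs, and no test is possible with 1 control library.

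The sequences of 4 of these exons are shown. That all 6 exposed libraries lay on one side of the control follows from how the pairs were counted. Of the exons given with values below, only Ppp3ca had the control highest. Over the 17 pairs the control was highest in 10 and lowest in 7.
Sgce, 27 nt, chr6:4690469-4690495, minus strand: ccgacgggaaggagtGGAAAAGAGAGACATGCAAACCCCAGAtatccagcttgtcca
Creb1, 42 nt, chr1:64559727-64559768, plus strand: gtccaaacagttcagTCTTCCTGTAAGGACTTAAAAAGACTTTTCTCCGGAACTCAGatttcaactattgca
Ppp3ca, 30 nt, chr3:136932011-136932040, plus strand: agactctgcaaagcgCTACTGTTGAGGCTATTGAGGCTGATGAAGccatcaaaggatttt
Numa1, 42 nt, chr7:102002295-102002336, plus strand: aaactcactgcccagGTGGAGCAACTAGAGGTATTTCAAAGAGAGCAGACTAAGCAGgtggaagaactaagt
Creb1 encodes the transcription factor CREB, which responds to cyclic AMP and calcium, and its exon was included at 26.5% in the control, 68.3% with chlorpyrifos, 84.6% with DDT, 63.2% with rotenone, 62.4% with carbaryl, 64.5% with deltamethrin and 57.8% with imidacloprid. The control was lowest, and the totals were alike at 13.5 to 16.4 FPKM. Numa1, which anchors the mitotic spindle, had 25.5% in the control, 52% with chlorpyrifos, 64.2% with DDT, 63.9% with rotenone, 56.4% with carbaryl, 62.1% with deltamethrin and 55.7% with imidacloprid. Here too the totals were alike, at 16.8 to 19.5 FPKM. Ppp3ca encodes the catalytic subunit of calcineurin, and its exon was included at 46.2% in the control, 12% with chlorpyrifos, 6.1% with DDT, 7.95% with rotenone, 6.38% with carbaryl, 15.6% with deltamethrin and 5.94% with imidacloprid. The control was the highest library, with 14.2 FPKM for the keeping form where no exposed library exceeded 4.22 FPKM. For Sgce the share was 14.4% in the control, 88.2% with chlorpyrifos, 68.4% with DDT, 88% with rotenone, 69.7% with carbaryl, 91.2% with deltamethrin and 99.2% with imidacloprid. The skipping form was 9 FPKM in the control and between 0.0987 and 4.24 FPKM in the exposed libraries. The 50-nt exon of Ndufa7 was at 41.0% in the control and 86.6% to 99.7% in the others, but its total ran from 28.1 to 125 FPKM. Because the control is a single library in each of these comparisons, they rest on 1 value. The others of the 17 pairs are in Dedd, Adgrg6, Endov, Rbfox2, Arvcf, Arhgap21, Zfp618, Szrd1, Sirt2, Upf3b and Prc1, where 2 pairs hold the same exon.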

How the data were processed

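Total RNA of 7 libraries was sequenced, 1 per group, and groups were taken from the sample titles. The submitters' processing notes name HISAT2 2.0.1, cutadapt 1.9.1, bcl2fastq 2.17.1.14 and the build GRCm38. For the FPKM step, no tool is named in the labels or headers. Per the file headers, the authors deposited an FPKM value for each event of transcript structure, and only values above 0 are listed (the lowest was 1e-06), so depth is unknown. Between 1973 and 2078 repeated lines per library were dropped.

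From these values, pairs were built with Python 3.11.15 and pandas 2.3.3. Exact pairs share the exon and both neighbours. Approximate pairs share the exon and have consecutive event identifiers, a rule set after the files had been seen. Gene names and coding positions came from GENCODE M21, which matched the name on the file's line for 427 of 460 pairs, differed for 30 and gave no match for 3, where the file's name was kept. Splice-site and intron motifs were not analysed here. No p-value is given, since each group has 1 library.

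Named pairs have at least 5 FPKM in every library and exclude predicted models, clone names and pseudogenes. They are the 12 largest ranges, the 3 largest differences in each direction of at least 20 points per insecticide, and the 6 smallest ranges with a median share of 20% to 80%. A few of these pairs are not reported here. Every pair of at least 1 FPKM in the list of genes with known neural microexons was also eligible. The members and lists were chosen with earlier results of these data known. The splits by reading frame, expression level and library standing apart, the gene families and the leave-one-out counts were chosen once the data had been looked at.

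The pairing and counting were tested on simulated data for DDT against control: of 200 pairs among 421 given a difference of 30 points, 199 were recovered, with 0 false calls. The simulated shares started near the middle of the scale and varied far less between libraries than the real ones. The check therefore covers the computation alone and cannot tell how many of the observed differences are false. The alternatives tried were other filters on low values, unlisted forms counted as 0, a pseudocount of 1 FPKM, exact pairs alone, 1 value per exon, a limit of 27 nt and a 2-fold ratio of the forms.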

Additional observations from a re-analysis of the deposited data

How the results depend on the processing

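The counts of microexons differing by 20 points or more depended on the filter. With at least 5 FPKM in every library (356 pairs) they were 69 for chlorpyrifos, 66 for DDT, 61 for rotenone, 76 for carbaryl, 70 for deltamethrin and 66 for imidacloprid. With an unlisted form counted as 0 (1276 pairs) they were, in the same order, 236, 224, 227, 239, 233 and 224; the middle library median became 28.1% (42.7% before) and 578 pairs ranged over 20 points or more. With exons of at most 27 nt (134 pairs) they were 42, 34, 36, 32, 34 and 32, and the median was 32.9%. Over all single-exon pairs, 19.5% to 20.4% differed in these comparisons. The counts of this small class are not read as a trait of the shortest exons. Of the 134 pairs, 85 ranged over 20 points or more (63.4%, against 53.7% of all single-exon pairs). With a 2-fold ratio of the forms in place of 20 points they were 246, 238, 235, 268, 249 and 257. No figure over longer exons is given beside these ratio counts or the 578 pairs, so neither is read as a trait of microexons. For longer exons the median percentage differing from the control was 19.0%, and it was 21.2% without a filter, 14.9% at 5 FPKM, 13.9% with unlisted forms as 0 and 14.3% with 1 FPKM added to each form. The cause was not tested, beyond the smaller or larger number of pairs that each filter leaves. Leaving out each library in turn gave 265 to 283 pairs with a range of 20 points or more, against 277. Among 215 differences of named pairs, 201 stayed at 20 points or more with 1 value per exon, 13 became smaller and 1 reversed: the approximate Foxm1 pair with deltamethrin, at -20.7 points. With 1 FPKM added to each form, 185 stayed and 30 became smaller. No paired analysis was possible because each group has 1 library and no result comes from a test. Precision is limited by the single libraries and the unknown depth.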
